A study of Homo sapiens with 8 samples.

Results

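Levels of mRNA for the cytosolic heat shock chaperones were followed in HCT116, a human colorectal cancer cell line, in which the study lowered the transcription factor TFAP2C or UBA2, also called SAE2, the catalytic subunit of the enzyme that activates SUMO. The chaperone genes are the 10 rows, in each of 2 count tables, whose symbol is HSPA1A, HSPA1B, HSPA4, HSPA8, HSPH1, DNAJB1, BAG3, HSP90AA1, HSP90AB1 or HSPB1, a set defined as the cytosolic chaperones that depend on the transcription factor HSF1. They are 10 of 42125 genes listed in the table of TFAP2C KD and 10 of 23393 in the table of UBA2 KD, and all 10 passed the expression filter in both. The 8 libraries form 4 groups of 2, and all cells carried a stable Tet-On shRNA against SAE2, including those given siRNA. The first experiment compared siRNA against TFAP2C with control siRNA, each for 48 hrs. The second compared Dox at 1 μg/mL, which induces the shRNA, with cells without Dox that the labels describe as given DMSO, each for 5 days. Only the induced cells received Dox, so Dox itself and the shRNA cannot be told apart. Nothing states whether the replicates are separate cultures or whether the line is a clone, so the p-values measure the spread between these libraries, which may be technical.

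Chaperones of the cytosol bind unfolded or immature proteins and release them for folding. HSP70 proteins do so in cycles of ATP hydrolysis that J-domain proteins start and nucleotide exchange factors end, HSP90 proteins mature client proteins such as kinases and steroid receptors, and small heat shock proteins hold unfolded chains without ATP. When proteins are damaged, HSF1 forms trimers, binds heat shock elements in promoters and raises the transcription of most of these genes. Tumor cells commonly hold many of them at a high level without heat.

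The 10 chaperones took 0.655% to 0.696% of the counts in the 4 libraries of the TFAP2C experiment. In the other experiment they took 1.37% and 1.38% without Dox and 1.21% and 1.23% in the UBA2 KD-labelled libraries. Total counts lay between 20785035 and 24465109 in the former and between 18213739 and 20607813 in the latter. TFAP2C itself had 18.9 and 20.5 CPM (counts scaled to a common library size with edgeR's TMM method) with control siRNA and 3.46 and 4.30 CPM in TFAP2C KD. UBA2 had 162 and 146 CPM without Dox and 147 and 153 CPM in the UBA2 KD-labelled libraries, a log2 fold change of -0.036 (95% confidence interval -0.15 to 0.078, adjusted p = 0.766, edgeR). No fall of its mRNA was detected, and directions below follow the labels only. The paper reports, from a western blot, lower UBA2 protein after Dox, and protein was not measured in these libraries. The 8 markers of HCT116 epithelium, such as KRT8 and EPCAM, summed to 2396 to 3849 CPM. VIL1, also in that list, was nearly absent, with 2 or 3 reads per library in the TFAP2C experiment and 0 or 1 in the other. Of the epithelial markers, 4 of 7 tested rose and 1 fell in the UBA2 KD-labelled libraries, where their sum was 2673 to 2757 CPM against 2396 to 2414 CPM. Over all 13381 genes tested there, 738 passed as higher and 598 as lower (edgeR). The 10 markers of other cell types summed to 23.0 to 62.0 CPM, most of it COL1A1, with COL1A2 at 0 in every library. The share of these marker changes in the results below was not tested.

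In TFAP2C KD, none of the 10 chaperones passed the test against control siRNA. The count at an adjusted p under 0.05 was 0 of 10 with edgeR's quasi-likelihood test and with DESeq2, and 0 of 10 had an unadjusted p under 0.05 in either. Over all 14991 genes tested, 0.740% passed, and 1889 had an unadjusted p under 0.05 in edgeR. The log2 fold changes of the chaperones ran from -0.15 to 0.13 with a median of 0.028, against -0.0038 over all genes. Both TFAP2C KD libraries lay above both controls for 2 of the chaperones, HSPA4 and DNAJB1, and below them for HSPA1A, where 22.4% of all genes lay above. The 2 TFAP2C KD libraries differed from each other more than the controls did. Without TFAP2C KD replicate 2, HSPA8, DNAJB1 and BAG3 passed as higher (log2 fold changes of 0.20, 0.23 and 0.17), among 2825 genes or 18.2% of all genes tested in that fit.

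In the UBA2 KD-labelled libraries, 9 of the 10 chaperones fell, and BAG3 did not pass the test. Over all 13381 genes tested, 9.98% passed in either direction and 4.47% passed as lower. The chaperones were chosen with earlier results of these data known, so a larger share among them can follow in part from the choice. Of these calls 44.8% were lower, or 57.8% when libraries were scaled by their size only. HSP90AA1 fell by 7.26%, the smallest fall, and HSPA1A fell by 40.6%, the largest. The median log2 fold change was -0.16, against -0.00042 over all genes. For all 10 chaperones both UBA2 KD-labelled libraries lay below both libraries without Dox, against 25.8% of all genes. In bulk RNA, fewer cells with a transcript and less of it per cell cannot be told apart. HSPA1B and HSPB1 passed under each of the 12 alternative settings, and HSPA8 under 11 of them. The Wald test of DESeq2 called 6 chaperones, all but HSPA1A, HSPH1, HSP90AA1 and BAG3. Leaving out no Dox control replicate 1 left 4 chaperones past the threshold, HSPA1B, HSPA8, HSP90AA1 and HSPB1. Leaving out no Dox control replicate 2, or replicate 1 of the UBA2 KD-labelled libraries, left 6 each time, and leaving out replicate 2 left 8. A joint fit of all 8 libraries, whose spread includes that of TFAP2C KD, left 3, which were HSPA1A, HSPA1B and HSPB1.

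**Figure D1:**
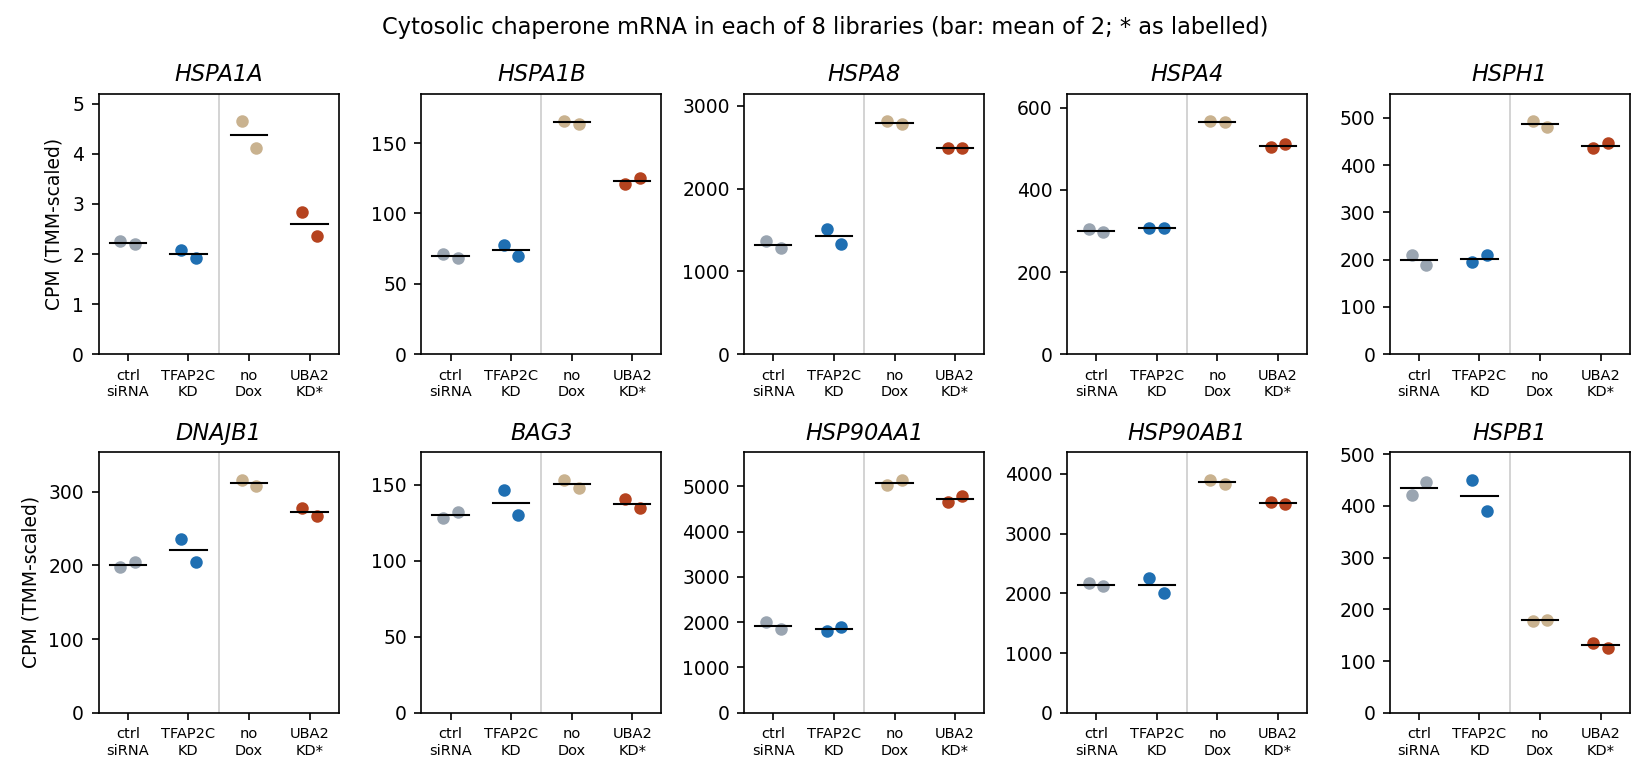
TMM-scaled CPM of each of the 10 chaperones in the 8 libraries, with each point a library, each bar the mean of 2, and a gray line between the 2 experiments. In every panel both UBA2 KD-labelled libraries lie below both libraries without Dox, while the TFAP2C KD points overlap the control siRNA points for 7 of the 10 chaperones.

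The promoters of the chaperones are shown for the element through which HSF1 acts, as the set is defined by dependence on HSF1. RefSeq windows from 250 bases before to 50 bases after each transcript start (GRCh38.p14) matched all 10 genes, with 15 windows in all. Heat shock elements were searched on both strands as inverted units with 2 bases between them. An element of 2 units reads GAANNTTC or TTCNNGAA, and an element of 3 units reads GAANNTTCNNGAA or TTCNNGAANNTTC and so contains the shorter forms. The capitals below mark the units, and each sequence is written 5′ to 3′ on the strand of its gene, with 16 bases on each side. The stretch of HSP90AA1 also holds, in lower case near its 3′ end, an element of 2 units (68 to 61 bases before the start). Not every element is printed. HSPA8 and HSP90AB1 each hold a further element of 3 units, at positions -230 to -218 and -165 to -153 from the start. DNAJB1 holds further elements of 2 units at -77 to -70 and, at another start, at 2 to 9.
HSPA1A, chr6:31815421-31815460, plus strand: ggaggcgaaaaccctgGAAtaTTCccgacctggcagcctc
HSPA1B, chr6:31827617-31827656, plus strand: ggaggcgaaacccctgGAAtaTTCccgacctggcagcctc
HSPA8, chr11:123062163-123062207, minus strand: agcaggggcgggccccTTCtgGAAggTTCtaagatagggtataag
DNAJB1, chr19:14518421-14518460, minus strand: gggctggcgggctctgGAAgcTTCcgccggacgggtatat
HSP90AA1, chr14:102087104-102087148, minus strand: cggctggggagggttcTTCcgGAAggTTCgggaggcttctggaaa
HSP90AB1, chr6:44247815-44247859, plus strand: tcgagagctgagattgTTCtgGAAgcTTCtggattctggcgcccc
HSPB1, chr7:76302475-76302514, plus strand: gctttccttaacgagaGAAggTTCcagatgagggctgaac

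Elements of 3 units lay in 3 of the 15 windows, those of HSPA8, HSP90AA1 and HSP90AB1, and in 0.490% of all 35116 windows. Elements of at least 2 units lay in 8 of the 15 windows, which belong to 7 of the 10 genes, and in 13.5% of all windows. The windows of HSPA4, HSPH1 and BAG3 hold neither form. Because the set was chosen for its dependence on HSF1, a share above that of all windows can follow from the choice alone. A link between these elements and the changes in mRNA was not tested. HSPA1A and HSPA1B each hold an element of 2 units, 106 and 105 bases before their starts, and their promoter windows are identical at 92.6% of the aligned bases. The motif GCCNNNGGC, which AP-2 factors such as TFAP2C bind, lay in 4 of the 15 windows, those of HSPB1, BAG3 and 2 of DNAJB1, and in 23.2% of all windows. The log2 fold changes of these 3 genes in TFAP2C KD were -0.046, 0.087 and 0.13, and none passed the test. A match describes only these letters.

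**Figure D2:**
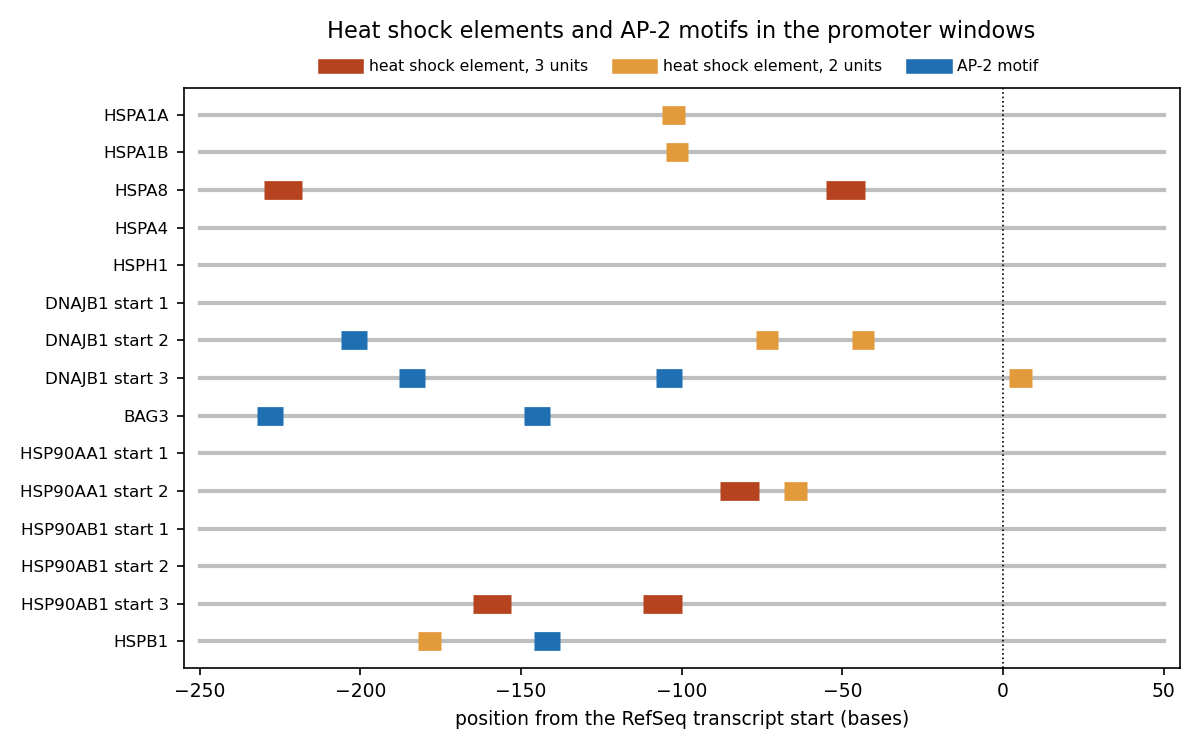
Heat shock elements of 3 units (red) and 2 units (orange) and AP-2 motifs (blue) in the 15 RefSeq windows of the 10 genes, by their position in bases from the transcript start. Elements of 3 units lie in the windows of HSPA8, HSP90AA1 and HSP90AB1, and AP-2 motifs in those of DNAJB1, BAG3 and HSPB1.

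Among the HSP70 proteins, HSPA1A and HSPA1B encode the stress-inducible HSP70 and lie next to each other on chromosome 6 (31815464 to 31817946 and 31827738 to 31830254 on GRCh38), each as a gene of 1 exon. HSPA1B had 71.3 and 68.4 CPM with control siRNA and 77.9 and 70.1 CPM in TFAP2C KD, and these groups overlapped. It had 165 and 164 CPM without Dox and 121 and 125 CPM in the UBA2 KD-labelled libraries. Both of the latter lay well below both controls, at a log2 fold change of -0.42 ± 0.053 (SE, adjusted p = 5.33e-07, edgeR), and the gene fell by 25.4%. HSPA1A was counted at a much lower level, with 2.26 and 2.21 CPM against 2.08 and 1.92 CPM in TFAP2C KD. In the other experiment it had 4.65 and 4.12 CPM without Dox and 2.83 and 2.36 CPM in the UBA2 KD-labelled libraries, from 87, 86, 51 and 44 reads. Its log2 fold change was -0.75 ± 0.19 (SE, adjusted p = 0.00973, edgeR), the largest fall of the 10 and also the least precise, with a confidence interval of -1.15 to -0.36. It did not pass without no Dox control replicate 1 (adjusted p = 0.0632) or without replicate 2 of the UBA2 KD-labelled libraries (adjusted p = 0.103), and DESeq2 gave it no adjusted p.

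These genes are near-identical copies, so reads of the study's length of 51 bases often cannot be assigned to either. Their transcripts are identical at 96.8% of the aligned bases in the GENCODE annotation of GRCh37. Of all 51-base windows, 75.1% of those of HSPA1A and 73.6% of those of HSPA1B occur in another gene's transcript, and the unshared windows lie at both ends of each transcript and, in HSPA1A, also in a short stretch between shared ones. HSPA1A took 1.86% to 3.13% of the counts of the 2 genes in the 8 libraries. The table of UBA2 KD also places the 2 genes partly on an alternative haplotype of chromosome 6. The division between HSPA1A and HSPA1B is therefore uncertain, while their sum does not depend on it. How reads that match both genes were counted is not given in the sources used here, so the sum may also miss reads. The sum was 170 and 168 CPM without Dox and 123 and 127 CPM in the UBA2 KD-labelled libraries, with a log2 fold change of -0.43 (adjusted p = 3.50e-07, edgeR). In TFAP2C KD the log2 fold change of the sum was 0.076, the opposite sign to HSPA1A alone, and it did not pass (adjusted p = 0.728, edgeR).

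**Figure D3:**
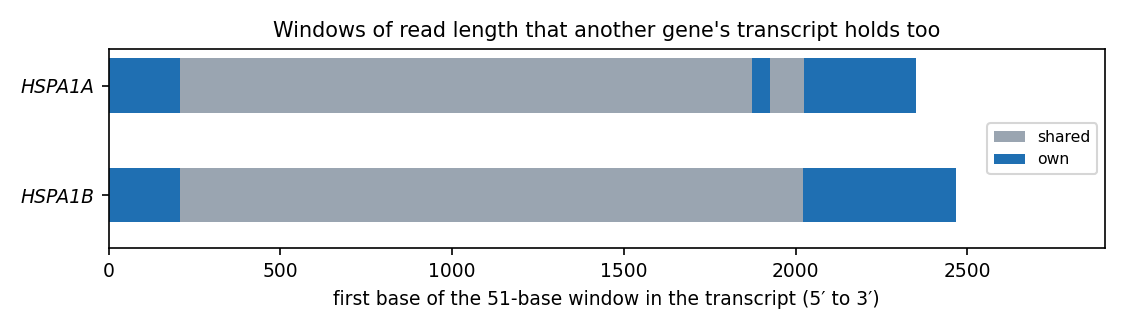
Windows of 51 bases along the transcripts of HSPA1A and HSPA1B, by first base from the 5′ end, in gray where another gene's transcript holds the same bases and in blue where none does. Shared windows make up 75.1% of HSPA1A and 73.6% of HSPA1B.

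HSPA8 encodes HSC70, the constitutive HSP70 (chromosome 11, 123057489 to 123063230 on GRCh38). It had 1366 and 1282 CPM with control siRNA and 1516 and 1332 CPM in TFAP2C KD, and the higher control lay above the lower knockdown library. Without Dox it had 2811 and 2777 CPM, and in the UBA2 KD-labelled libraries it had 2491 and 2495 CPM. The groups were separated by more than the spread within either, with a log2 fold change of -0.16 ± 0.036 (SE, adjusted p = 0.00228, edgeR). Per kb of gene length, HSPA8 was 15.0 and 14.9 times HSPA1B without Dox and 18.2 and 17.6 times in the UBA2 KD-labelled libraries. In the 4 libraries of the TFAP2C experiment it was 9.75 to 10.1 times HSPA1B. The gene models give HSPA8 4.84 kb in that experiment and 2.86 kb in the other, so the ratios cannot be compared between experiments. Of the 51-base windows, 73.6% for HSPA1B and 15.7% for HSPA8 are shared with another gene. Reads from these may be missed, so the ratios may be too high. With 2 libraries against 2, an exact permutation test of such a ratio cannot give a p below 0.333, so none was made. From 2.42% to 19.0% of the 51-base windows of DNAJB1, HSPB1, HSPA8, HSP90AA1 and HSP90AB1 also occur in another transcript, most often that of a pseudogene, and 0% of those of HSPA4, HSPH1 and BAG3.

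HSPA4 and HSPH1 encode HSP110 proteins, large relatives of HSP70 that act as its nucleotide exchange factors. HSPA4 (chromosome 5, 133052013 to 133106449 on GRCh38) had 304 and 297 CPM with control siRNA and 307 and 308 CPM in TFAP2C KD. Both knockdown libraries were higher, and the difference did not pass (adjusted p = 0.869, edgeR). In the other experiment it had 567 and 565 CPM without Dox and 504 and 511 CPM in the UBA2 KD-labelled libraries. It fell by 10.3%, with a log2 fold change of -0.16 ± 0.043 (SE, adjusted p = 0.0145, edgeR), and it did not pass when no Dox control replicate 1 or 2, or replicate 1 of the UBA2 KD-labelled libraries, was left out (adjusted p = 0.0816, 0.0761 and 0.0569). HSPH1 (chromosome 13, 31134974 to 31162388 on GRCh38) had 209 and 189 CPM with control siRNA and 194 and 211 CPM in TFAP2C KD, which interleaved. It had 493 and 480 CPM without Dox and 436 and 447 CPM in the UBA2 KD-labelled libraries. The log2 fold change was -0.14 ± 0.044 (SE, adjusted p = 0.0376, edgeR). Without the same 3 libraries in turn this gene did not pass either (adjusted p = 0.241, 0.0896 and 0.146), nor with DESeq2 (adjusted p = 0.0646).

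DNAJB1 encodes HSP40, a J-domain protein that hands substrates to HSP70 and stimulates its ATPase (chromosome 19, 14514769 to 14529770 on GRCh38). It had 197 and 204 CPM with control siRNA and 235 and 205 CPM in TFAP2C KD. The lower knockdown library was level with the higher control, and the difference did not pass (log2 fold change 0.13, adjusted p = 0.493, edgeR). Without Dox it had 316 and 308 CPM, and in the UBA2 KD-labelled libraries 278 and 266 CPM. It fell by 12.8%, with a log2 fold change of -0.20 ± 0.047 (SE, adjusted p = 0.00501, edgeR), and it did not pass without no Dox control replicate 1 (adjusted p = 0.0640). BAG3 encodes a co-chaperone that binds HSP70 and small heat shock proteins and feeds selective autophagy (chromosome 10, 119651370 to 119677819 on GRCh38). It had 128 and 132 CPM with control siRNA and 147 and 130 CPM in TFAP2C KD, which overlapped. It had 153 and 148 CPM without Dox and 141 and 135 CPM in the UBA2 KD-labelled libraries, lower in both but with an adjusted p = 0.133 (log2 fold change -0.13, confidence interval -0.24 to -0.021, edgeR). BAG3 passed under none of the 12 alternative settings, whose smallest adjusted p was 0.0539.

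HSP90AA1 and HSP90AB1 encode the cytosolic HSP90 proteins, of which the alpha form is the more stress-inducible and the beta form the more constitutive. HSP90AA1 (chromosome 14, 102080738 to 102139699 on GRCh38) had 1996 and 1848 CPM with control siRNA and 1806 and 1904 CPM in TFAP2C KD, and the groups interleaved. It had 5020 and 5142 CPM without Dox and 4645 and 4779 CPM in the UBA2 KD-labelled libraries. Its log2 fold change of -0.11 ± 0.035 (SE, adjusted p = 0.0446, edgeR) was the smallest of the 10 and the closest to the threshold of those that passed. It did not pass with DESeq2 (adjusted p = 0.115), with a minimum of 10 counts in every library (adjusted p = 0.0567, edgeR), without no Dox control replicate 2 (adjusted p = 0.210) or without replicate 1 of the UBA2 KD-labelled libraries (adjusted p = 0.199). HSP90AB1 (chromosome 6, 44246166 to 44253888 on GRCh38) had 2166 and 2125 CPM with control siRNA and 2259 and 2009 CPM in TFAP2C KD, with the controls between the knockdown libraries. It had 3898 and 3823 CPM without Dox and 3525 and 3495 CPM in the UBA2 KD-labelled libraries. The log2 fold change was -0.14 ± 0.036 (SE, adjusted p = 0.00999, edgeR), and the adjusted p was 0.0652 without no Dox control replicate 1. Per kb of gene length the alpha to beta ratio was 0.833 and 0.870 without Dox and 0.852 and 0.884 in the UBA2 KD-labelled libraries, which interleaved. The ratio uses gene lengths of 4.47 kb for alpha and 2.89 kb for beta. Their canonical GENCODE transcripts have 3228 and 2555 bases, so the ratio does not show which form had more mRNA.

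HSPB1 encodes HSP27, the small heat shock protein of this set (chromosome 7, 76302673 to 76304295 on GRCh38). It had 422 and 446 CPM with control siRNA and 450 and 390 CPM in TFAP2C KD, where the controls lay between the knockdown libraries. Without Dox it had 177 and 179 CPM, and in the UBA2 KD-labelled libraries it had 135 and 126 CPM. It fell by 27.0% with the smallest adjusted p of the 10 (log2 fold change -0.45 ± 0.054 SE, adjusted p = 1.56e-07, edgeR), and leaving out each library in turn kept it past the threshold. The other 6 chaperones that passed beside HSPA1A and HSPA1B fell by less, from HSP90AA1, which fell by 7.26%, to DNAJB1, which fell by 12.8%.

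**Figure D4:**
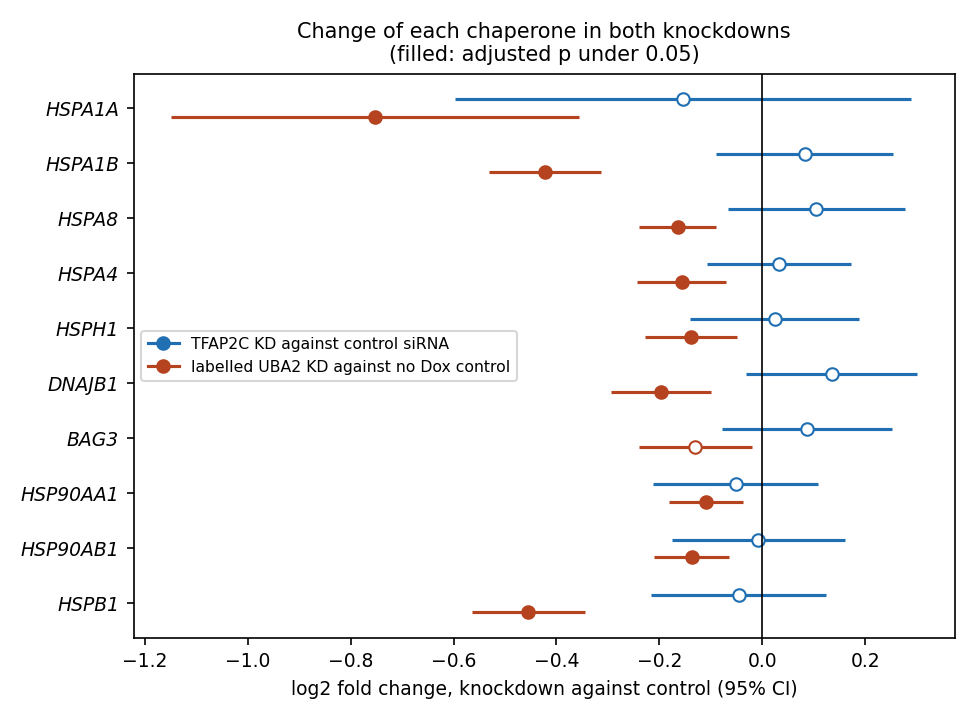
Log2 fold change of each chaperone with its 95% confidence interval in TFAP2C KD (blue) and in the UBA2 KD-labelled libraries (red), each against its own control, filled where the adjusted p was under 0.05. All 10 blue intervals cross 0, and all 10 red intervals lie below 0, with HSPA1A, HSPA1B and HSPB1 the farthest from it.

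Levels between genes were compared per kb of the gene length given in each table (RPKM). In control siRNA libraries HSP90AB1 was highest with 723 RPKM and HSP90AA1 next with 367 RPKM. HSPB1 with 288 RPKM and HSPA8 with 274 RPKM overlapped and so did not differ beyond their spread. HSPA4, DNAJB1, BAG3, HSPA1B and HSPH1 followed in that order from 59.1 to 23.8 RPKM without overlap between neighbours, and HSPA1A was last with 0.90 RPKM. In the libraries without Dox the order was HSP90AB1 with 1335 RPKM, HSP90AA1 with 1136, HSPA8 with 978, HSPB1 with 171 and HSPA4 with 168 RPKM, then DNAJB1, HSPH1, HSPA1B, BAG3 and HSPA1A from 133 to 1.81 RPKM. No neighbours overlapped there. Each order depends on the gene length used. With control siRNA the lengths of HSPH1, HSP90AA1 and HSPA8 were 8.37, 5.24 and 4.84 kb. Their canonical GENCODE transcripts have 5244, 3228 and 2264 bases. For HSPA1B the length was 2.52 kb and the transcript has 2517 bases. An order per transcript length was not computed, so the separation covers only the spread between libraries. The levels of HSPA1A and HSPA1B may miss reads that match both genes. The tables count over different gene models (HSPA8 has 4.84 kb in the first and 2.86 kb in the second) and were normalized separately, so no level was compared between them.

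Whether the chaperones responded differently to the knockdowns was tested with an interaction contrast over all 8 libraries. Of the 13179 genes shared and tested, 2.37% passed. An unadjusted p under 0.05 in edgeR was found for 1864 of them, and for 7 of the 10 chaperones. The change in TFAP2C KD exceeded that in the UBA2 KD-labelled libraries for all 10 chaperones, with a median difference of 0.23 on the log2 scale against -0.00056 over all genes. It passed for HSPA1B, at 0.49 ± 0.091 (SE, adjusted p = 0.00765, edgeR), and for HSPB1, at 0.40 ± 0.095 (SE, adjusted p = 0.0408, edgeR). DESeq2 called the same genes. The other 8 did not pass, with differences from 0.045 for HSP90AA1 (confidence interval -0.12 to 0.21, adjusted p = 0.861) to 0.59 for HSPA1A (confidence interval 0.013 to 1.16, adjusted p = 0.340). DNAJB1 came closest of these, at 0.32 (adjusted p = 0.0872). The experiments differ in agent, time and gene models as well as in the targeted gene, and these cannot be told apart. The calls also rested on few libraries. Without control siRNA replicate 2, either no Dox control replicate, or replicate 1 of the UBA2 KD-labelled libraries, 0 chaperones passed with edgeR (5, 5, 5 and 6 at an unadjusted p under 0.05). The call for HSPB1 was lost without control siRNA replicate 1 and without replicate 2 of the UBA2 KD-labelled libraries (adjusted p = 0.202 and 0.217). Without TFAP2C KD replicate 2, 6 chaperones passed, all with the greater value in TFAP2C KD, in a fit where 11.6% of all genes passed.

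Genes that work with these chaperones were followed in 6 lists of 56 genes. These lists were also chosen with earlier results of these data known. In TFAP2C KD, 0 of the 50 tested passed with edgeR or with DESeq2, and 4 and 3 had an unadjusted p under 0.05. Their median log2 fold change was 0.018. Over all 14991 genes tested, 1889 had an unadjusted p under 0.05 in edgeR. Without TFAP2C KD replicate 2, 6 passed as higher and 4 as lower, in a fit where 18.2% of all genes passed. In the UBA2 KD-labelled libraries, 8 of 51 tested fell and 0 rose, where 4.47% of all genes were lower, and the median was -0.054. In 24 of the 51 both libraries lay below both controls, against 25.8% of all genes. Leaving out a library reduced the 8 that fell to 2 (no Dox control replicate 1), 4 (no Dox control replicate 2), 3 (replicate 1 labelled UBA2 KD) and 4 (replicate 2 labelled UBA2 KD), and DESeq2 and the joint fit of all 8 libraries each called 3. The difference between the knockdowns passed for 0 of 51 with edgeR or DESeq2, with 8 and 6 at an unadjusted p under 0.05. Over all genes, 1864 of 13179 had an unadjusted p under 0.05 for this difference in edgeR.

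HSP90 co-chaperones, which load clients on HSP90 and set the pace of its ATP cycle, gave 4 falls among 13 tested in the UBA2 KD-labelled libraries, and a median log2 fold change of -0.084. SUGT1, which links HSP90 to client proteins of the kinetochore, had 63.4 and 70.7 CPM without Dox and 57.7 and 55.4 CPM in the UBA2 KD-labelled libraries (log2 fold change -0.25 ± 0.067 SE, adjusted p = 0.0143, edgeR). CHORDC1, a zinc-binding HSP90 partner, had 135 and 128 CPM against 107 and 115 CPM (log2 fold change -0.24 ± 0.057 SE, adjusted p = 0.00499, edgeR). In both genes the groups were apart. AHSA1, which activates the HSP90 ATPase, and UNC45A, a myosin chaperone, also fell (log2 fold changes of -0.16 and -0.18), and these were named after their values had been seen. Over all genes 4.47% were lower. Each library left out in turn reduced the 4 to 1 or 2, DESeq2 called 1, and the joint fit called 0.

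Among 12 other J-domain proteins 3 fell, against the 4.47% that were lower over all genes, and the median was -0.070. DNAJB4, a cytosolic relative of DNAJB1, had 32.1 and 28.8 CPM without Dox and 21.9 and 23.7 CPM in the UBA2 KD-labelled libraries (log2 fold change -0.42 ± 0.086 SE, adjusted p = 0.00101, edgeR). DNAJA1, another cytosolic HSP40, had 336 and 308 CPM against 276 and 271 CPM (log2 fold change -0.24 ± 0.049 SE, adjusted p = 0.00101, edgeR). DNAJA4 passed with -0.17 (adjusted p = 0.041, edgeR) and was likewise named after its value had been seen. These 3 J-domain genes are among the 8 list genes whose number fell under other settings, as given above. Of the other HSP70 and small heat shock genes 6 of 11 were tested and HSPA2 alone fell, from 4.38 and 3.83 CPM to 2.50 and 2.52 CPM (log2 fold change -0.70 ± 0.20 SE, adjusted p = 0.0178, edgeR). It rests on 82, 80, 45 and 47 reads. It was not called by DESeq2, nor without no Dox control replicate 1 or either of the UBA2 KD-labelled libraries.

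No gene of the other 3 lists passed in the UBA2 KD-labelled libraries with edgeR or DESeq2. The 8 subunits of TRiC, the chaperonin that folds actin and tubulin, had a median of -0.057, with 7 of 8 below 0 and 0 at an unadjusted p under 0.05. Over all 13381 genes tested, 3036 had an unadjusted p under 0.05 in edgeR. The 8 other nucleotide exchange factors and partners of HSP70 had a median of 0.021, with 1 at an unadjusted p under 0.05 in edgeR and 0 in DESeq2. HSF1 itself, with HSF2, HSF4 and their binding protein HSBP1, had log2 fold changes between -0.016 and 0.18, and 0 had an unadjusted p under 0.05. HSF1 had a log2 fold change of 0.046 (adjusted p = 0.698) in the UBA2 KD-labelled libraries and of 0.083 (adjusted p = 0.654) in TFAP2C KD.

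**Figure D5:**
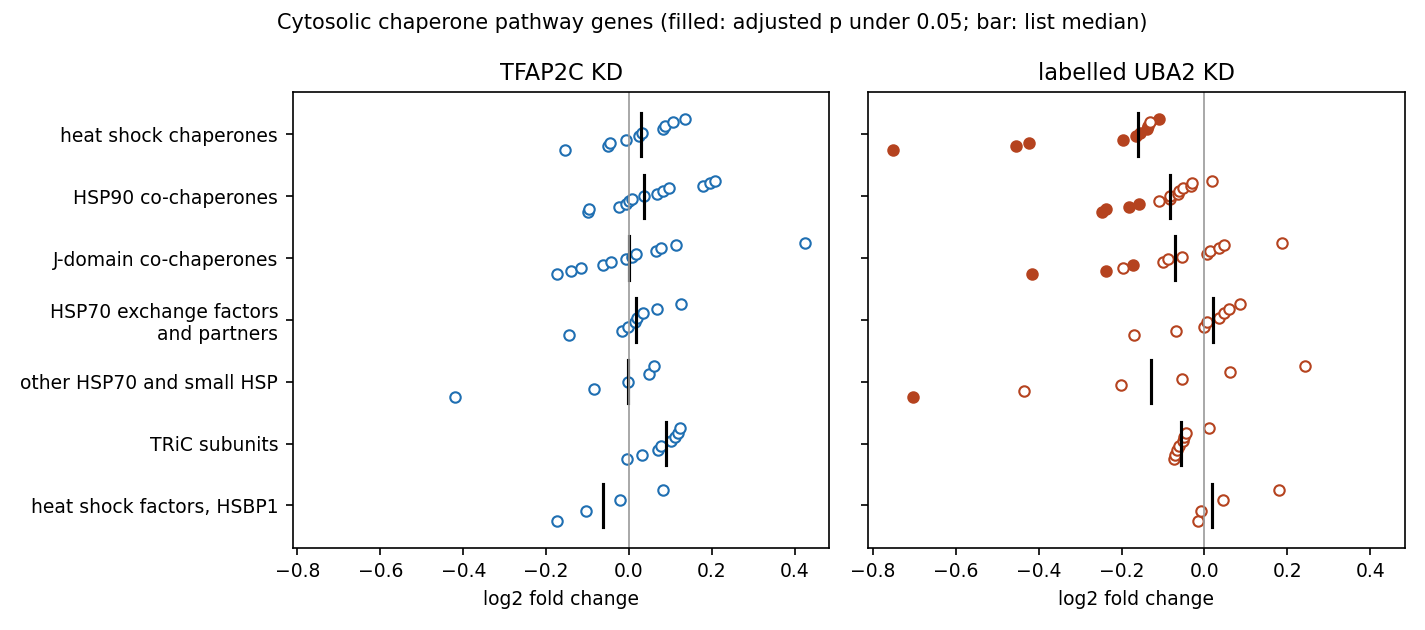
Log2 fold change of each tested gene of the chaperone set and of the 6 related lists in TFAP2C KD (left) and the UBA2 KD-labelled libraries (right), filled where the adjusted p was under 0.05, with a bar at the list median. Filled points lie at the right only, all below 0, in the chaperone set and in the lists of HSP90 co-chaperones, J-domain proteins, and other HSP70 and small heat shock genes.

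Genes whose pattern over the 8 libraries was like the mean log2 CPM of the 10 chaperones, with each experiment centred, were sought among 5673 genes tested in both tables. ACACA, which makes malonyl-CoA for fatty acid synthesis, had a Pearson r of 0.986, and PTTG1, which encodes securin, an r of 0.985. The libraries within a group share their treatment, so the r describes mostly the contrast between groups. The log2 fold changes of ACACA and PTTG1 in the UBA2 KD-labelled libraries were -0.21 and -0.28, and in TFAP2C KD 0.024 and 0.058.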

How the data were processed

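mRNA of 8 HCT116 libraries was sequenced by the authors as 51 bp single-end reads. Per the study's methods and the submitters' processing notes, reads were aligned with TopHat2 to hg19 and counted on RefSeq genes with HTSeq 0.9.1, and the strand setting is not given in the sources used here. The authors deposited raw read counts per gene, with a gene length in kb, in a table for each experiment. The table of TFAP2C KD carries positions of GRCh38 and that of UBA2 KD those of hg19. No column of sample values was left unused.

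Groups came from the sample titles. In R 4.3.3, each experiment was fitted separately with edgeR 4.0.16 (filterByExpr, TMM, two-sided quasi-likelihood test, no term for the replicate number), with Benjamini-Hochberg adjustment over all genes tested and a threshold of 0.05. Standard errors were derived from the F statistics, and intervals are 95%. The spread between libraries corresponded to a biological coefficient of variation of 6.28% for TFAP2C KD and 3.56% for UBA2 KD. Values per library are TMM-scaled CPM, and RPKM divides these by the length given in the table. The difference between the knockdowns was an interaction contrast over the shared symbols. The genes named are the 10 chaperones, up to 2 higher and 2 lower genes past the threshold per list and comparison, the 3 genes with the most similar pattern (mean log2 CPM of at least 5, 0.5 CPM added), of which 1 is not reported here, and TFAP2C and UBA2. The chaperones and lists were chosen with earlier results of these data known. Promoters came from RefSeq (GRCh38.p14), and shared 51-base windows were counted on the canonical transcripts of GENCODE for GRCh37. No protein sequences were used.

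Alternatives were DESeq2 1.42.0 (its size factors, and its Wald test), library size only, no filter, at least 10 counts in every library, the replicate block, all 8 libraries in a joint fit, summed HSPA1A and HSPA1B, and each library left out in turn. Where this left a group with 1 library, that library was assumed to vary like the others. The code was tested on simulated data with 200 changed genes.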

Additional observations from a re-analysis of the deposited data

Results flagged for a closer look

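The change of HSPA1B in TFAP2C KD exceeded its change in the UBA2 KD-labelled libraries by 0.49 on the log2 scale, and the difference itself passed the interaction test of edgeR (adjusted p = 0.00765). The higher change was in TFAP2C KD, at 0.083 against -0.42. The corresponding difference for HSPB1 was 0.40 (adjusted p = 0.0408, edgeR), from -0.046 in TFAP2C KD and -0.45 in the UBA2 KD-labelled libraries. Both were noted because the effects of the knockdowns differed, and both are differences between experiments that also differ in agent, time and gene models. Part of the transcript of each gene is shared with another gene, 73.6% of the 51-base windows of HSPA1B and 13.2% of those of HSPB1. Leaving out single libraries gave 0.44 to 0.56 for HSPA1B and 0.31 to 0.49 for HSPB1, and the call of HSPA1B was lost without control siRNA replicate 2, either no Dox control replicate, or replicate 1 of the UBA2 KD-labelled libraries. HSPB1 stayed past the threshold only without TFAP2C KD replicate 1 or replicate 2.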

How the results depend on the processing

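All 10 chaperones lay below 0 in the UBA2 KD-labelled libraries under every setting run, and the sum of HSPA1A and HSPA1B did so in the setting that used it. The number past the threshold there was 9, against 6 with the Wald test of DESeq2, 3 in the joint fit of all 8 libraries and 4 to 8 with a library left out. In TFAP2C KD it was 0, against 0 to 3 with a library left out. For the difference between the knockdowns it was 2, against 4 without a filter, 1 with the replicate block and 0 to 6 with a library left out. Over all genes, the 111 calls in TFAP2C KD became 398 without a filter, 172 with the replicate block, 271 in the joint fit, 467 with crossed replicate numbers, and 49 to 2825 with a library left out. The 1336 calls in the UBA2 KD-labelled libraries became 665 with the Wald test of DESeq2, 696 in the joint fit and 833 to 1271 with a library left out. The 313 calls of the difference became 607 without a filter, 173 with the replicate block and 113 to 1554 with a library left out. The causes were not tested.

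In TFAP2C KD, where no chaperone passed, HSPH1 turned to -0.0043 with library size only, and HSPA1A to 0.076 when summed with HSPA1B. With a library left out, the log2 fold change ran from -0.11 to 0.0054 for HSP90AA1, from -0.094 to 0.078 for HSP90AB1, from -0.15 to 0.057 for HSPB1, from -0.0025 to 0.17 for BAG3 and from -0.056 to 0.10 for HSPH1. The difference for HSP90AA1 ran from -0.0037 to 0.10. With library size only, 57.8% of the calls over all genes in the UBA2 KD-labelled libraries were lower, against 44.8% with TMM and 33.4% with the Wald test. The lower share in TFAP2C KD was 54.4% with the Wald test, against 64.9% with edgeR.

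The deviations of libraries with the same replicate number had a correlation of -0.18 in TFAP2C KD and 0.016 in the UBA2 KD-labelled libraries, so the numbers were not taken to pair the samples. The replicate block left 8 of the 9 chaperone calls in the UBA2 KD-labelled libraries (HSPH1 at an adjusted p = 0.0501, edgeR) and lost the call of HSPB1 in the difference (adjusted p = 0.123, edgeR). The crossed numbering was chosen after the data had been seen, and it gave 0 chaperones in TFAP2C KD.

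Depth limits HSPA1A, which had 43 to 87 reads per library, more than the other chaperones.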
